A study of Mus musculus with 6 samples.

Results

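Amino acid transporters of the plasma membrane were compared between M8 cells and the CT26.mMR1 line they came from. The transporters were chosen with earlier results of these data known. They were taken by their symbols, namely Slc7a5, Slc3a2, Slc7a11, Slc7a1, Slc1a4, Slc1a5, Slc38a1, Slc38a2, Slc6a9 and Slc43a1. These 10 were present among the 24346 genes in each sample. Of these 10 transporters, 8 had a mean of at least 1 FPKM over the 6 samples and were tested among 10597 genes, and Slc38a1 and Slc43a1 were below that level. FPKM is the number of sequenced fragments scaled to transcript length and library size, so that levels of different genes can be set side by side per length.

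CT26 is a mouse colorectal tumor line, and CT26.mMR1 cells carry mouse MR1, the molecule that presents small metabolites to MAIT cells, introduced with a retrovirus. The labels give all 6 samples as overexpressing MR1, and all 6 titles carry the tag cl9, which is not explained in the sources used here. M8 was obtained from CT26.mMR1 cells by treatment with the mutagen ENU and limiting dilution, and clones were screened by the MR1 on their surface and by their activity toward a MAIT cell reporter. M8 is therefore 1 clone, so differences from the parental cells cannot be told apart from differences between clones. RNA of each line was sequenced in 3 biological replicates, and the p-values measure the spread between these replicates only.

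The uptake of amino acids by tumor cells depends on a small set of carriers with different substrates. The heavy chain Slc3a2 (CD98) pairs at the cell surface with light chains such as Slc7a5 (LAT1), which exchanges large neutral amino acids, and Slc7a11 (xCT), which takes up cystine in exchange for glutamate. Slc7a1 (CAT1) carries cationic amino acids, Slc1a4 (ASCT1) and Slc1a5 (ASCT2) exchange small neutral amino acids including serine or glutamine, Slc38a1 and Slc38a2 (SNAT) take up neutral amino acids with sodium, Slc6a9 (GlyT1) takes up glycine, and Slc43a1 (LAT3) carries large neutral amino acids without a heavy chain. Several of these genes are known targets of the transcription factor ATF4, which is translated when the kinase GCN2 senses a lack of amino acids and which binds the amino acid response element of its target genes.

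The depth of the libraries was estimated from the smallest steps between FPKM values of weakly expressed genes, at 23.8 to 26.9 M reads in the parental replicates and 19.4 to 21.98 M in the M8 replicates. This corresponded to an estimated 455 to 680 reads in a sample for Slc7a11, 142 to 179 for Slc38a1 and at most 6.66 for Slc43a1, and to at least 2117 for each of the other transporters. Of the markers of colon epithelium, Epcam, Cdh1, Krt19 and Cdx2 were listed at 0 in all 6 samples although the labels name colon. The 11 epithelial markers summed to 41.9 to 57.7 FPKM in the parental line and 48.2 to 50.2 FPKM in M8, most of it Krt18 and Krt20. The 10 mesenchymal markers summed to 2736 to 3184 FPKM and 2889 to 2984 FPKM, most of it Vim (1921 ± 197 and 2015 ± 44.0 FPKM, limma adjusted p = 0.441). The 11 immune and endothelial markers summed to 4.21 to 5.55 FPKM in the parental line and 1.55 to 3.07 FPKM in M8, with Cd3e, Adgre1 and Cdh5 listed at 0 in all samples. Of the epithelial and immune markers, Krt20 (17.4 ± 2.36 and 11.9 ± 0.979 FPKM in the parental line and in M8, limma adjusted p = 0.004379), Lgals4 (1.68 ± 0.438 and 0.68 ± 0.106 FPKM, limma adjusted p = 0.007279) and Cd68 (4.31 ± 0.563 and 1.76 ± 0.605 FPKM, limma adjusted p = 0.00203) were lower in M8. Of the mesenchymal markers, Fn1 was lower (622 ± 22.5 and 488 ± 17.3 FPKM, limma adjusted p = 0.0009172), and Pdgfrb (21.4 ± 0.811 and 25.6 ± 1.21 FPKM, limma adjusted p = 0.007871) and Cdh2 (21.7 ± 0.32 and 23.8 ± 0.509 FPKM, limma adjusted p = 0.05504) were higher. The part of these markers in the results was not tested. In bulk RNA a higher level in each cell and more cells with the transcript cannot be told apart.

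Of the 8 transporters tested, 7 were higher in M8 and 0 were lower at an adjusted p below 0.1 (limma, Benjamini-Hochberg over all genes tested), and 0 were lower at an unadjusted p below 0.05. Over all 10597 genes, 21.2% were called higher and 16.5% were called lower. The 7 transporters rose between 1.14-fold and 1.49-fold in mean FPKM, and none reached 1.5-fold. The median log2 fold change of the 8 transporters was 0.35, compared with 0.01 over all genes tested. Every M8 replicate was above every parental replicate for the 7 transporters, as was the case for 24.8% of all genes tested. The split of calls over all genes depended on the scaling, with 2250 genes higher and 1745 lower in the values as deposited, 1658 and 2209 after rescaling to TPM, and 1470 and 2769 after upper-quartile scaling. The 7 transporters were also higher under the latter scalings. Summed over the 10 transporters, the level was 833 ± 17.8 FPKM in M8 (SD, n = 3) and 685 ± 17.5 FPKM in the parental line, a ratio of 1.22.

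**Figure D1:**
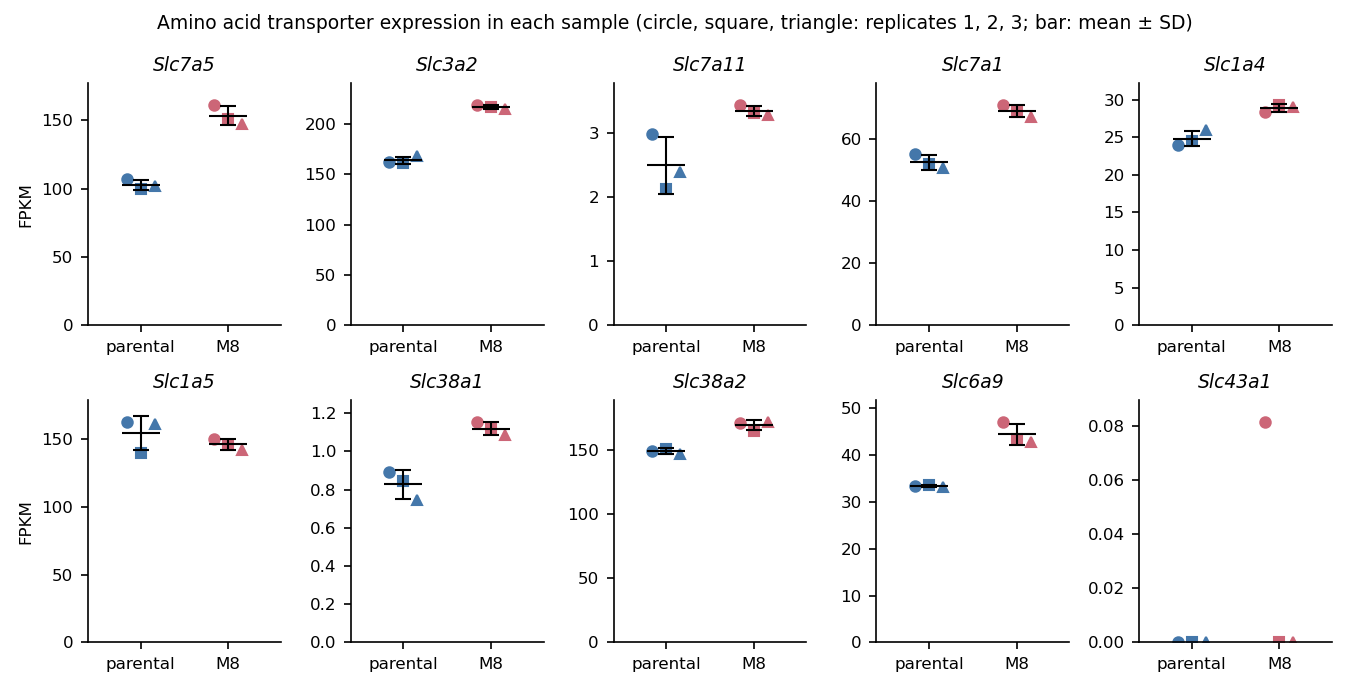
FPKM of each of the 10 transporters in the 3 parental (blue) and 3 M8 (red) replicates, with circles, squares and triangles for replicates 1, 2 and 3 and bars for mean ± SD (none for Slc43a1). The M8 replicates lie above the parental ones for 8 transporters, overlap with them for Slc1a5, and hold the single value above 0 of Slc43a1, 0.0812 FPKM.

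The plot of levels by sample shows both the large range between the transporters and the narrow spread within a line. Slc3a2, Slc1a5 and Slc38a2 were the most abundant of the 10 in parental cells, with neighbours in this order overlapping in their replicates, and were followed by Slc7a5, Slc7a1, Slc6a9, Slc1a4, Slc7a11, Slc38a1 and Slc43a1, each separate from the next. In M8 the order was Slc3a2, Slc38a2, Slc7a5 and Slc1a5, of which the latter pair overlapped, and the order below them was the same. Slc7a5 moved from rank 4 to rank 3 and Slc1a5 from rank 2 to rank 4.

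Slc7a5 had the largest fold change of the 8 transporters tested. The gene lies at chr8:121881150-121907694 on the minus strand (GRCm38, GENCODE vM21). Its level was 107, 99.8 and 102 FPKM in parental replicates 1 to 3 and 161, 151 and 147 FPKM in M8 replicates 1 to 3. All M8 values were thus above all parental values, and the closest pair differed by more than the range of either line. The mean rose from 103 ± 3.72 to 153 ± 7.05 FPKM, a log2 fold change of 0.57 ± 0.05 (SE, n = 3 and 3; limma adjusted p = 0.0001629) on the log2(FPKM + 1) scale used for all fold changes here. Among the 10597 genes tested, 60 had a larger log2 fold change.

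Slc3a2 encodes the heavy chain that brings the light chains to the cell surface, and lies at chr19:8706882-8723369 on the minus strand. It measured 163, 161 and 168 FPKM in parental replicates and 219, 217 and 215 FPKM in M8 replicates, with no overlap. The log2 fold change was 0.40 ± 0.04 (limma adjusted p = 0.0002059).

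Slc7a11 encodes the cystine and glutamate exchanger, which supplies cysteine for glutathione, and lies at chr3:49892526-50443614 on the minus strand. Its level was low, at 2.98, 2.12 and 2.38 FPKM in parental replicates and 3.43, 3.30 and 3.27 FPKM in M8 replicates. Parental replicate 1 was closest to the M8 values but still below them. The log2 fold change was 0.32 ± 0.10 (limma adjusted p = 0.04074), with the widest 95% interval of the 8 transporters, 0.09 to 0.54. The call was lost without parental replicate 2 (log2 fold change 0.24, limma adjusted p = 0.1279) and without M8 replicate 1 (0.30, limma adjusted p = 0.1167).

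Slc7a1 encodes the carrier for arginine and lysine, and lies at chr5:148327410-148399904 on the minus strand. It measured 55.1, 51.8 and 50.5 FPKM in parental replicates and 70.9, 68.6 and 67.1 FPKM in M8 replicates. The lines did not overlap, and the log2 fold change was 0.39 ± 0.05 (limma adjusted p = 0.0006954).

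The exchangers of small neutral amino acids were Slc1a4 and Slc1a5. Slc1a4, at chr11:20302180-20332713 on the minus strand, carries alanine, serine, cysteine and threonine. It measured 24.0, 24.5 and 25.9 FPKM in parental replicates and 28.3, 29.3 and 29.1 FPKM in M8 replicates, and rose by a log2 fold change of 0.21 ± 0.05 (limma adjusted p = 0.009147). The M8 values of Slc1a4 were all above the parental ones, although the distance was smaller than for Slc7a1. Slc1a5, at chr7:16781340-16798274 on the plus strand, is the glutamine exchanger. It measured 163, 140.1 and 161 FPKM in parental replicates and 150.3, 146 and 142 FPKM in M8 replicates. Here the M8 values lay within the parental range, in which replicate 2 was low. The log2 fold change was -0.08 ± 0.06 with a 95% interval of -0.21 to 0.05 and did not pass the test (limma adjusted p = 0.3466). It passed as lower in M8 without parental replicate 2 (-0.15, limma adjusted p = 0.04457), after upper-quartile scaling (-0.14, limma adjusted p = 0.09512) and after quantile normalization (-0.17, limma adjusted p = 0.07508).

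The sodium-coupled neutral amino acid carriers lie close to each other on chromosome 15 and differed in abundance by a factor of more than 100. Slc38a2, at chr15:96687392-96699730 on the minus strand, is the member of this family that is known to adapt to amino acid supply. Its level was 149, 151 and 147 FPKM in parental replicates and 172, 165 and 172 FPKM in M8 replicates, which did not overlap. The log2 fold change of 0.18 ± 0.04 (limma adjusted p = 0.006872) was the smallest among the 7 called transporters, and after quantile normalization it was 0.08 and no longer passed (limma adjusted p = 0.158). Slc38a1, at chr15:96571418-96642913 on the minus strand, measured 0.892, 0.843 and 0.745 FPKM in parental replicates and 1.15, 1.12 and 1.08 FPKM in M8 replicates. All M8 values of Slc38a1 were above the parental ones, but its mean level was below the minimum for testing. In a fit without that minimum its log2 fold change was 0.21 ± 0.05 (limma adjusted p = 0.04281).

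Slc6a9 encodes the glycine transporter GlyT1 and lies at chr4:117834506-117875198 on the plus strand. It measured 33.5, 33.6 and 33.1 FPKM in parental replicates and 47.0, 43.4 and 42.8 FPKM in M8 replicates. The parental replicates were nearly equal and M8 replicate 1 was the highest of the 6. The log2 fold change was 0.40 ± 0.05 (limma adjusted p = 0.0006443). Slc43a1, a carrier of large neutral amino acids at chr2:84838850-84863594 on the plus strand, was listed at 0 in 5 samples and at 0.0812 FPKM in M8 replicate 1, and no fold change is given for it.

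Some of the loci hold other annotated genes, and whether the counting used the strand of the reads is not given in the sources used here. Slc6a9 overlaps Ccdc24 and B4galt2, both on the opposite strand, at a mean of 2.07 and 17.9 FPKM. Neither passed the test, with log2 fold changes of 0.03 ± 0.09 for Ccdc24 (limma adjusted p = 0.8091) and 0.06 ± 0.06 for B4galt2 (limma adjusted p = 0.4939). Slc6a9 also overlaps the noncoding gene Gm17114, Slc7a5 overlaps the predicted gene Gm20388, and Slc7a11 overlaps 5 predicted genes or pseudogenes.

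**Figure D2:**
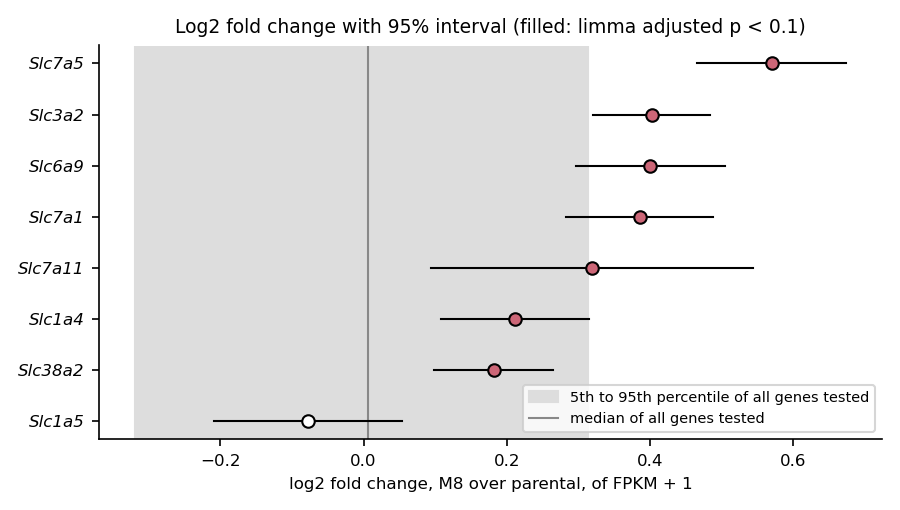
Log2 fold change of FPKM + 1 in M8 over parental cells for the 8 transporters tested, with 95% intervals from limma. Filled circles passed an adjusted p below 0.1, the grey band runs from -0.32 to 0.31, the 5th to 95th percentile of all genes tested, and Slc7a5, at 0.57, lies farthest above it.

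The plot of fold changes sets the transporters against the 90% of genes between the 5th and 95th percentile. Slc7a5, Slc3a2, Slc6a9, Slc7a1 and Slc7a11 lay above the 95th percentile, and Slc1a4 and Slc38a2 lay within the band at percentiles 87.5 and 84.2. Slc1a5 was at percentile 31.7.

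The ATF4 response element was searched for near the start sites of the transporters because several of these genes are known targets of ATF4. RefSeq (GRCm38.p6) windows of 300 bases, from 250 before to 50 after the start, were found for 7 of the 10 transporters (10 windows), namely Slc3a2, Slc7a11, Slc7a1, Slc1a4, Slc38a2, Slc6a9 and Slc43a1. The letters TGATGNAA, read on both strands, were found in 3.97% of all 32851 windows of this length. Among the transporters they were present at Slc7a11, in 2 matches, and at Slc1a4, in 1 match. The lines below print the bases around the annotated start, with 40 bases before the farthest match, and the matches are in capitals. The match of Slc1a4 spans the start.
Slc7a11, chr3:50443613-50443719, minus strand: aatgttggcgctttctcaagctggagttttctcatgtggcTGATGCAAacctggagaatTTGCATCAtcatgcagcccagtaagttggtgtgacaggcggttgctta
Slc1a4, chr11:20332710-20332757, minus strand: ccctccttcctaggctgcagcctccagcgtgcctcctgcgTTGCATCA

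In Slc7a11 the matches began 66 and 47 bases before the start, the first on the gene's strand and the second on the other strand, and in Slc1a4 the match began 4 bases before the start on the other strand. The antioxidant response element TGACNNNGC was present in 12.4% of all windows, and among the transporters in windows of Slc43a1, Slc6a9, Slc7a1 and Slc38a2. The E-box CACGTG was present in 7.15% of all windows and in a window of Slc43a1. A match describes the letters only. The window of Slc3a2, at chr19:8713848-8714147, held no match to the 3 motifs. It lies inside the gene, whose upstream end in GENCODE is at 8723369, and the bases around that end were not searched.

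The ratio between transporters that work together was compared within each sample. Slc7a5 over Slc3a2 was 0.658, 0.620 and 0.606 in parental replicates and 0.736, 0.697 and 0.686 in M8 replicates. The light chain thus rose more than the heavy chain in M8, by 0.17 on the log2 scale of FPKM + 1, and the replicates did not overlap. An exact two-sided permutation test gave p = 0.1, the smallest value for 3 against 3, and 0.1667 after adjustment over the 5 ratios computed. Slc7a11 over Slc3a2 was 0.0152 ± 0.00273 in parental cells and 0.0154 ± 0.000254 in M8, with overlapping replicates (exact permutation p = 0.8, adjusted p = 0.8). The difference of this ratio was -0.08 with a pseudocount of 1 and 0.01 with a pseudocount of 0.1, so it had no stable sign. Slc1a5 over Slc1a4 was 6.78, 5.71 and 6.22 in parental replicates and 5.31, 4.98 and 4.90 in M8 replicates. All M8 values of this ratio were lower, with a difference of -0.29 on the log2 scale (exact permutation p = 0.1, adjusted p = 0.1667). The remaining ratios also hold a weakly expressed gene, and their size depended on the pseudocount. Slc7a11 over Slc7a5 was 0.0278, 0.0212 and 0.0234 in parental replicates and 0.0213, 0.0218 and 0.0222 in M8 replicates, so the plain ratios overlapped. With a pseudocount of 1 the lines were separate and differed by -0.25 (exact permutation p = 0.1, adjusted p = 0.1667), and with a pseudocount of 0.1 they differed by -0.16. Slc38a2 over Slc38a1 was 168, 179.6 and 197.5 in parental replicates and 149, 148 and 159 in M8 replicates, with every M8 value lower. With a pseudocount of 1 the lines overlapped and differed by -0.03 (exact permutation p = 0.5, adjusted p = 0.625), and with a pseudocount of 0.1 they differed by -0.21.

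**Figure D3:**
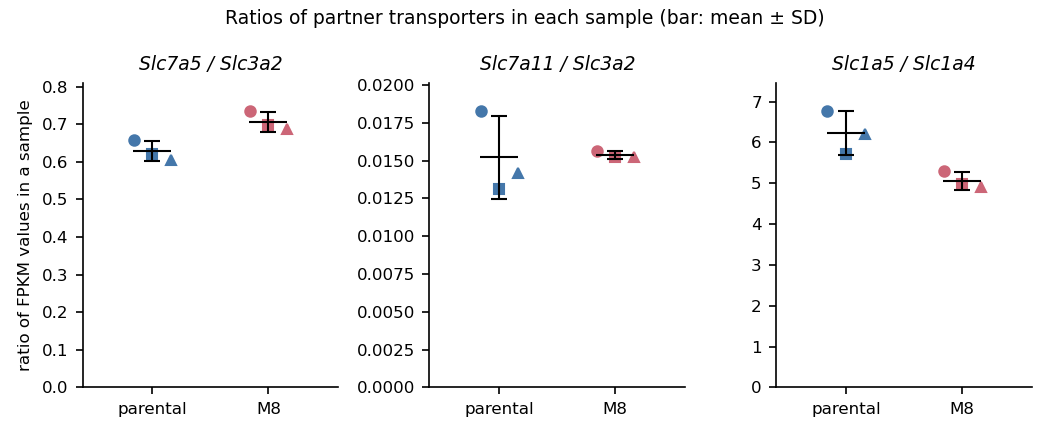
Ratio of FPKM values within each sample for 3 pairs of transporters, in parental (blue) and M8 (red) replicates, with circles, squares and triangles for replicates 1, 2 and 3 and bars for mean ± SD. Slc7a5 over Slc3a2 is higher in every M8 replicate (0.686 to 0.736) than in every parental one, Slc1a5 over Slc1a4 is lower (4.90 to 5.31), and Slc7a11 over Slc3a2 overlaps.

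The plot of ratios shows a shift between Slc7a5 and Slc3a2 that was smaller than the log2 fold change of either gene. The 6 light chains of Slc3a2 summed were Slc7a5, Slc7a6, Slc7a7, Slc7a8, Slc7a10 and Slc7a11, and of these Slc7a8 and Slc7a10 were listed at 0 in all samples. Slc7a5 made up 83.7% to 84.6% of this sum in parental replicates and 87.5% to 88.5% in M8 replicates. The heavy chain over the sum of light chains was 1.34 ± 0.0546 in parental cells and 1.25 ± 0.0408 in M8 (exact two-sided permutation p = 0.2). Slc7a6, a light chain for cationic and neutral amino acids, had parental and M8 levels of 15.4 ± 0.684 and 16.5 ± 0.694 FPKM (limma adjusted p = 0.2472).

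Among 8546 genes with a mean of at least 5 FPKM, the pattern of Slc7a5 over the 6 samples was most like that of Ppia, a peptidyl-prolyl isomerase, with Pearson's r of 0.9991, followed by Usp36 (0.9982), Phf11d (0.9982), Dbf4 (0.9981) and Srsf2 (0.9971). These values describe 6 samples in 2 lines, and any gene that differs between the lines with little spread within them has a high r. Of the transporters, Slc7a1 was at rank 33 (r of 0.9929), Slc6a9 at rank 42 (0.9919) and Slc3a2 at rank 113 (0.9861). The r was lower for Slc38a2 (0.96) and Slc1a4 (0.91) and was -0.36 for Slc1a5.

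The list of other plasma membrane amino acid transporters held 36 genes. Of these, 14 were listed at 0 in all samples and 8 were abundant enough to be tested, of which 2 were higher, 1 was lower and 5 did not pass, against 21.2% higher and 16.5% lower over all genes, with a median log2 fold change of -0.08. Slc38a7, a glutamine and asparagine carrier that is known to act in lysosomes although it was placed in this list, rose from 18.1 ± 0.317 to 22.2 ± 1.84 FPKM (log2 fold change 0.28 ± 0.06, limma adjusted p = 0.00841). Slc38a4, a carrier of neutral amino acids, rose from 5.86 ± 0.171 to 7.32 ± 0.453 FPKM (0.28 ± 0.06, limma adjusted p = 0.01193). Slc38a10 fell from 29.7 ± 0.909 to 25.2 ± 0.502 FPKM (-0.23 ± 0.04, limma adjusted p = 0.005005). The taurine transporter Slc6a6 had the highest mean of this list, with parental and M8 levels of 51.6 and 49.4 FPKM, and did not pass (limma adjusted p = 0.3196).

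Transporters inside the cell were also counted. Of the 7 tested genes in the list of lysosomal amino acid and peptide transporters, which does not hold Slc38a7, 0 passed in limma in either direction and 0 had an unadjusted p below 0.05, compared with 41.0% of all genes tested, and their median log2 fold change was 0.00253. Slc15a4, a lysosomal carrier of peptides and histidine, had the highest mean, with parental and M8 levels of 12.1 and 12.4 FPKM. Slc38a9, the lysosomal arginine sensor, was below the minimum for testing, at 0.734 ± 0.0631 and 0.634 ± 0.0323 FPKM. Of 12 mitochondrial carriers tested, 5 were higher and 0 were lower, against 21.2% higher and 16.5% lower over all genes tested, with a median of 0.11. Slc25a39, a carrier linked to the glutathione of mitochondria, had the highest mean and did not pass, with parental and M8 levels of 256 and 267 FPKM (limma adjusted p = 0.3094). The branched-chain amino acid carrier Slc25a44 rose from 12.8 ± 0.876 to 15.7 ± 0.108 FPKM (log2 fold change 0.28 ± 0.06, limma adjusted p = 0.006332). The glycine carrier Slc25a38 had parental and M8 levels of 6.78 ± 1.42 and 8.48 ± 0.231 FPKM (0.30 ± 0.11, limma adjusted p = 0.07717), and its call was lost after rescaling to TPM and without M8 replicate 1, among other alternatives, as was that of the glutamate carrier Slc25a22 (0.18, limma adjusted p = 0.08885). The serine carrier Sfxn1 rose from 36.4 to 40.6 FPKM (0.15 ± 0.05, limma adjusted p = 0.03837), a call lost after rescaling to TPM, upper-quartile scaling or quantile normalization and without M8 replicate 1. The count of higher mitochondrial carriers fell to 1 after rescaling to TPM or upper-quartile scaling, and to 1 without M8 replicate 1.

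**Figure D4:**
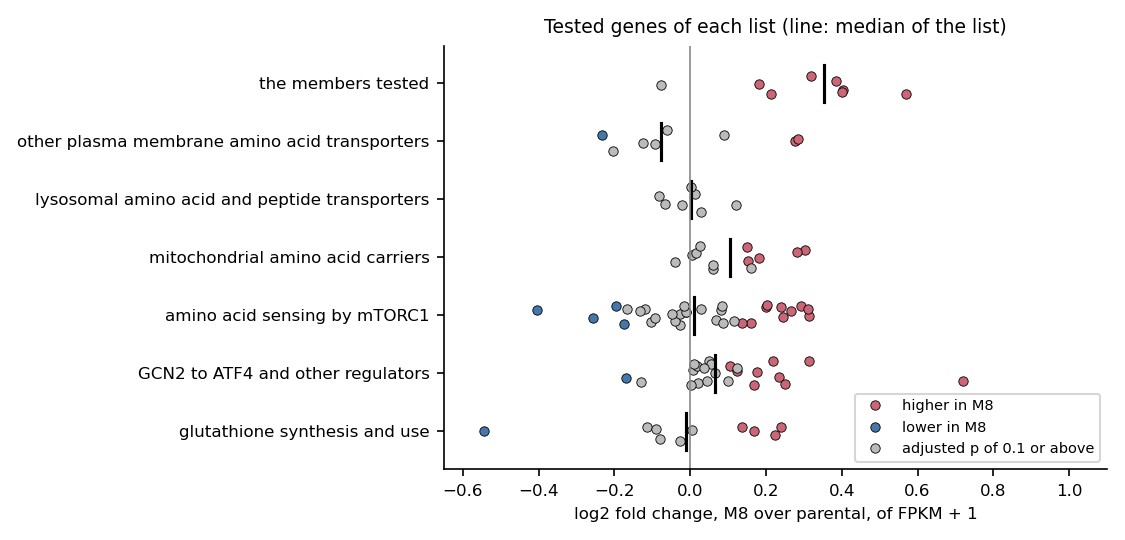
Log2 fold change of FPKM + 1 in M8 over parental cells for each tested gene of 7 lists, with a black line at the median of each list. The 8 transporters have a median of 0.35, the lists below them have medians between -0.08 and 0.11, and Cebpb, at 0.72, is the point farthest to the right.

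The plot of lists also places the transporters beside genes that sense amino acids, genes of the response to their lack, and other regulators. The list of GCN2 to ATF4 genes and other regulators is called the GCN2 to ATF4 list here. In it, 9 of 23 genes tested were higher, 1 was lower and 13 did not pass, against 21.2% higher and 16.5% lower over all genes, with a median log2 fold change of 0.06. The higher genes include Keap1 and Nedd4l, which are among the other regulators. After upper-quartile scaling 6 genes of the list were higher and 2 lower. Atf4 itself was 561, 543 and 568 FPKM in parental replicates and 649.5, 680.1 and 639 FPKM in M8 replicates, a log2 fold change of 0.24 ± 0.04 (limma adjusted p = 0.003301). Cebpb, a partner of ATF4 on DNA, was 42.8, 57.1 and 66.3 FPKM in parental replicates and 100.6, 90.3 and 81.3 FPKM in M8 replicates (0.72 ± 0.14, limma adjusted p = 0.004981). These regulators differed between the lines with no overlap, though Cebpb varied more within each line. Atf5, a related factor, rose from 409 to 486 FPKM (0.25, limma adjusted p = 0.01505), and Eif2ak2, the kinase PKR, rose from 40.5 to 50.6 FPKM (0.31, limma adjusted p = 0.001371). Eif2ak4, the gene of GCN2, had parental and M8 levels of 8.50 and 7.68 FPKM and did not pass (-0.13, limma adjusted p = 0.1503). Nupr1 was the lower gene of the list (-0.17, limma adjusted p = 0.07567). Ddit3 and Trib3, which are induced when ATF4 activity is prolonged, did not pass, with log2 fold changes of 0.05 (limma adjusted p = 0.5515) and 0.02 (limma adjusted p = 0.7484) that change sign under upper-quartile scaling. Nfe2l2, which drives antioxidant genes, did not pass either (0.06, limma adjusted p = 0.2752).

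Of 32 genes of amino acid sensing by mTORC1 that were tested, 10 were higher, 4 were lower and 18 did not pass, against the same 21.2% and 16.5% over all genes, with a median of 0.01. Sesn2, a leucine sensor that is also a target of ATF4, rose from 30.9 ± 2.34 to 38.6 ± 1.37 FPKM (log2 fold change 0.31 ± 0.06, limma adjusted p = 0.004858). Itfg2, a subunit of the KICSTOR complex, rose from 11.0 ± 1.2 to 13.9 ± 1.16 FPKM (0.31, limma adjusted p = 0.02138), and Flcn, the folliculin gene, rose from 16.2 ± 1.23 to 20.04 ± 0.605 FPKM (0.29, limma adjusted p = 0.00685). Gatsl2, the older symbol of the CASTOR family gene Castor2, fell from 4.81 ± 0.146 to 3.39 ± 0.201 FPKM (-0.40 ± 0.07, limma adjusted p = 0.003581). The arginine sensor Castor1, listed as Gatsl3, had parental and M8 levels of 7.52 and 6.55 FPKM (-0.18, limma adjusted p = 0.07092), and its call was lost when any replicate but M8 replicate 2 was left out. Lars, the leucyl-tRNA synthetase, had the highest mean of this list and rose from 188 to 216 FPKM (0.20, limma adjusted p = 0.005098).

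Cystine taken up by Slc7a11 feeds the synthesis of glutathione. Of 10 genes of glutathione synthesis and use that were tested, 4 were higher, 1 was lower and 5 did not pass, against 21.2% higher and 16.5% lower over all genes, with a median log2 fold change of -0.01. Gclm, the modifier subunit of the enzyme that starts the synthesis, rose from 21.3 ± 0.563 to 25.1 ± 0.448 FPKM (0.22 ± 0.04, limma adjusted p = 0.005913). Gclc, the catalytic subunit of the same enzyme, had parental and M8 levels of 26.4 and 24.3 FPKM, with every M8 replicate lower. It did not pass (-0.11, limma adjusted p = 0.1011). Gsr, which reduces oxidised glutathione, rose from 17.4 ± 0.249 to 20.7 ± 0.553 FPKM (0.24 ± 0.05, limma adjusted p = 0.004982). Ggt1, which splits glutathione outside the cell, fell from 12.9 ± 0.662 to 8.54 ± 0.888 FPKM (-0.55 ± 0.07, limma adjusted p = 0.001277). Gpx4, the glutathione peroxidase that reduces lipid peroxides, had the highest mean and rose from 467.5 to 525 FPKM (0.17, limma adjusted p = 0.01217), a call lost after quantile normalization.

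**Figure D5:**
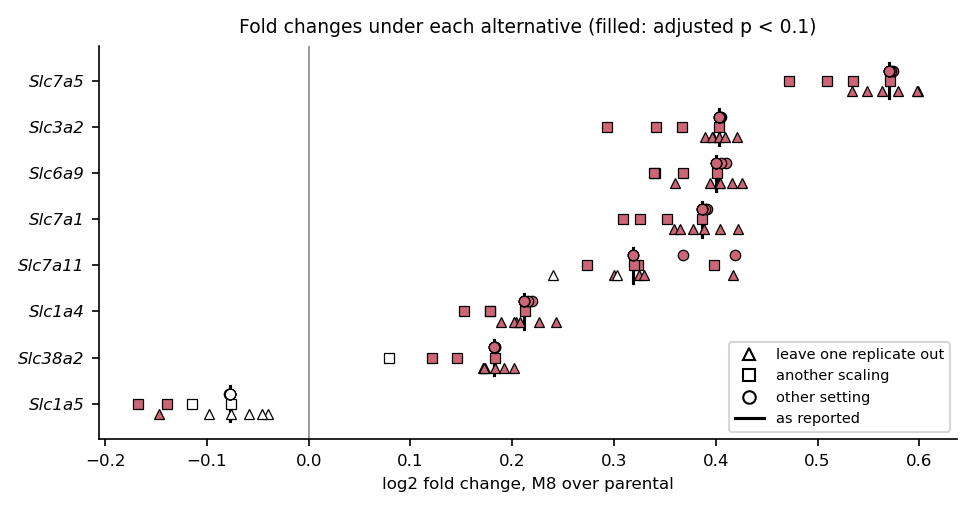
Log2 fold change of the 8 transporters under each alternative, with triangles for fits that leave out a replicate, squares for other scalings, circles for other settings and a black line for the value as reported. Filled points passed an adjusted p below 0.1, Slc7a5 ranges from 0.47 to 0.60, and open points mark the fits in which Slc7a11 or Slc38a2 lost its call and those in which Slc1a5 had none.

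The plot of alternatives shows that Slc7a5 had the largest fold change of the tested transporters under each setting, while the order below it moved. After quantile normalization Slc7a11 was second at 0.40 and Slc3a2 was at 0.29, and with a pseudocount of 0.1 Slc7a11 (0.42) was also above Slc3a2 (0.40). Slc3a2 ranged from 0.29 to 0.42, Slc6a9 from 0.34 to 0.43, Slc7a1 from 0.31 to 0.42 and Slc1a4 from 0.15 to 0.24, and these 4 transporters and Slc7a5 passed at an adjusted p below 0.1 in limma under every alternative scaling, pseudocount, filter and left-out replicate.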

How the data were processed

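RNA of 3 parental and 3 M8 replicates was sequenced from stranded mRNA libraries. The authors mapped the reads to mm10 and deposited FPKM values for 24346 genes, which correct for library size and transcript length. The submitters' processing notes name TopHat2 2.1.1, Bowtie2 2.2.8, SAMtools 0.1.18 and Cuffdiff 2.2.1, and the gene annotation is not given in the sources used here. The study's own comparison used read counts, which were not used here. The FPKM values come without an estimate of their counting error, so no interval on single values is given.

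Fold changes were fitted in limma 3.58.1 under R 4.3.3, using lmFit and eBayes with trend, on log2(FPKM + 1), which understates changes of low genes, for the 10597 genes with a mean of at least 1 FPKM, with Benjamini-Hochberg adjustment and a threshold of 0.1, as in the study. The fit was tested on simulated data. Ratios and single genes were compared with exact two-sided permutation tests, whose smallest p for 3 against 3 is 0.1. A planned ratio of Slc7a5 to Slc43a1 was not computed because Slc43a1 was listed at 0. Depth was estimated from the steps of low genes with a single transcript, of which 64.6% to 66.1% of values were within 0.05 reads of a whole number. Replicates of a line had Pearson's r of 0.9935 to 0.9952 across genes. On estimated reads their chi-square per gene was 2.99 to 9.05. Errors in the estimated depths and lengths also raise this value, so an excess over sampling noise was not established.

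The transporters and all gene lists were chosen with earlier results of these data known. Besides the transporters, the text names in each other list up to 4 called genes with the largest change and the gene with the highest mean, the regulators Atf4, Cebpb, Ddit3, Trib3 and Nfe2l2, the sensors Sesn2, Castor1 and Slc38a9, and the 5 genes most like Slc7a5. Slc7a6, Ccdc24, B4galt2 and the genes overlapping other transporters were named for their relation to a transporter. Eif2ak4, Nupr1, Keap1, Nedd4l and Gclc were named outside this rule, to describe their lists. The listed symbols Slc66a4 and Samtor were matched to no gene. Alternatives were tried for the pseudocount (0.1, 0.5), the minimum level (none, 5 FPKM), the scaling (TPM, median centring, upper quartile, quantile), the variance trend (none), the threshold (0.05, or 1.5-fold), a block on replicate numbers, and single replicates omitted.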

Additional observations from a re-analysis of the deposited data

How the results depend on the processing

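The 7 called transporters stayed higher in M8 in direction under each alternative in which they were tested, which leaves out Slc7a11 at a mean of at least 5 FPKM. The number past the threshold was 6 to 8 apart from a minimum fold change. With a fold change of at least 1.5, 42 genes were higher and 74 lower, and 0 transporters remained. Upper-quartile scaling gave 1470 genes higher and 2769 lower, and 1 transporter, Slc1a5, was lower there, as after quantile normalization and without parental replicate 2. Leaving out a replicate gave 1591 to 2100 genes higher and 1142 (without M8 replicate 1) to 1681 lower, with 6 or 7 transporters higher and 0 or 1 lower. The replicate block gave 2171 genes higher and 1688 lower, with the same 7 transporters higher and 0 lower. The deviations of same-numbered samples from the mean of their line correlated at 0.10, -0.11 and -0.03. Those of differently numbered samples correlated at -0.13 to 0.18. With so few samples in a line, these values cannot show whether the samples were prepared in pairs. With a pseudocount of 0.1, Slc7a11 over Slc7a5 differed by -0.16 and Slc38a2 over Slc38a1 by -0.21.

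Without the filter 1992 genes were higher and 1622 lower of 16092 tested. There, 5 of 22 other plasma membrane transporters tested were higher and 2 lower, 2 of 15 mitochondrial carriers were higher, and 2 mTORC1 genes and 0 GCN2 to ATF4 genes were lower. After upper-quartile scaling 2 other plasma membrane transporters, 1 mitochondrial carrier, 7 mTORC1, 2 GCN2 to ATF4 and 3 glutathione genes were lower and 1 mitochondrial carrier was higher. After quantile normalization, with 1820 genes higher and 1773 lower, 2 other plasma membrane transporters, 2 GCN2 to ATF4 and 3 glutathione genes were lower, and 3 mitochondrial carriers and 2 glutathione genes were higher. After rescaling to TPM 1 mitochondrial carrier was higher and 2 glutathione genes were lower, as were 2 after median centring and 2 with a mean of at least 5 FPKM. Without the trend, with 2070 genes higher and 1775 lower, and at an adjusted p below 0.05, 2 mitochondrial carriers were higher and 0 GCN2 to ATF4 genes were lower, and at the latter 2 mTORC1 genes were lower. A 1.5-fold minimum left 1 gene of the GCN2 to ATF4 list higher and 0 lower. In the other transporter, carrier, mTORC1 and glutathione lists it left 0 genes in either direction. The marker lists were not counted under the alternatives. Leaving out a replicate gave 1 to 5 mitochondrial carriers higher, and 1 to 2 other plasma membrane transporters, 2 to 4 mTORC1, 0 to 1 GCN2 to ATF4 and 1 to 2 glutathione genes lower. The cause was not tested. Depth limits Slc43a1, Slc38a1 and Slc7a11 most.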
